A study of Mus musculus with 2 samples.

Results

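The mRNAs described here encode 8 very large proteins that tie the cytoskeleton together or to membranes: the spectraplakins Macf1 and Dst, the plakin Plec1, the dystrophin relative Utrn, the nesprins Syne1 and Syne2, the actin cross-linker Flna, and Ahnak. Their probes were all spots for transcripts whose deposited gene name equalled 1 of these names, which gave 8 of 28095 gene names and 37 probes of 41174 on the array. These probes stand for 18 accessions, of which 12 are coding mRNAs out of 18754. The set was assembled because Macf1 showed the largest rise in polysome share, so every change between the arrays is given as a description and is not tested.

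NIH3T3 cells, a line of mouse embryonic fibroblasts, were left untreated (control) or were given 10 µM thapsigargin for 3 h. Both groups grew on 4 plates in medium with bovine serum, and nothing else in the labels separates them. Their lysates were run through sucrose gradients, and RNA was collected as a polysomal fraction (P, labelled with Cy3) and a combined free and monosomal fraction (FM, labelled with Cy5). Per the study's methods, P and FM RNA were labelled in the proportions found in the gradients, 300 ng in all. More of it was P in control cells and more was FM after thapsigargin, so the labelled input differed between the arrays. RNA of 3 preparations was pooled, and each condition was put on 1 array, so no replicate check exists and no p-value is given.

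Thapsigargin blocks the calcium pump of the endoplasmic reticulum and causes endoplasmic reticulum stress, during which initiation of translation slows for most mRNAs. An mRNA carried by several ribosomes sediments with polysomes, while an idle mRNA stays with the free and monosomal material. Plakins and spectraplakins are long rods that link actin, microtubules and intermediate filaments in fibroblasts. Nesprins sit in the outer nuclear membrane and, with SUN proteins, couple the nucleus to the cytoskeleton. Utrophin joins actin to the dystroglycan complex, filamin A joins actin filaments into networks, and the large Ahnak protein lies under the plasma membrane with S100a10 and Anxa2.

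All probes are 60 bases long, and the files give both their mm9 coordinates and the base at which each starts in its source transcript. Whether a probe lies in coding or untranslated sequence is not given in the sources used here, so the first 30 bases are shown, in the sense of the mRNA. The probes below are those on which the contrasts within genes rest, near the start and far along a transcript, beside the Macf1 probe.
Macf1 start 17066, chr4:123027470-123027529, minus strand: acataatgtctcaatactgggtgttaaagg
Dst NM_133833 start 773, chr1:34209337-34211389, plus strand, across an exon junction: cgaaggtggcgaaggcattggtgcaaacga
Dst NM_134448 start 22388, chr1:34364644-34364703, plus strand: aggaagaaagaacttaacatgaactgatgt
Plec1 NM_201389 start 1962, chr15:76019695-76019754, minus strand: ctgttgttcaatgatgtgcagacccttaaa
Plec1 NM_201389 start 14755, chr15:76002029-76002088, minus strand: gtcctgtatattcagtgggttttgctggcc
Ahnak NM_001039959 start 84, chr19:9063858-9063917, plus strand: gtcagcactgcgacctcgggcccttcgccg
Ahnak NM_001039959 start 822, chr19:9151186-9151245, plus strand: ctgcagttaaagggatgccttctttgaggt
Ahnak NM_009643 start 17962, chr19:9093549-9093608, plus strand: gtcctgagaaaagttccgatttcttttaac

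Most of these mRNAs had a larger polysomal share on the thapsigargin array than on the control array, whereas 70.7% of coding mRNAs had a smaller one. That majority depends on processing: the median change over all coding mRNAs, -0.71, was 0.33 with normexp background correction and 1.84 with each array centred on its spike-in probes. The normexp value covers a larger set, with 18731 coding accessions outside the members against 10022 as reported. The measure is log2 P/FM, a probe's P signal over its FM signal on the log2 scale, and the change is thapsigargin minus control. Of the 37 probes, 21 were well above background in all 4 channels. Log2 P/FM was below 0 in control cells for 14 of these 21 and above 0 after thapsigargin for 20. The matching shares of all probes were not computed, and the medians over all coding mRNAs were 0.34 and then -0.29. For the 21 probes log2 P/FM was higher after thapsigargin for 17 and lower for 4. Their median change was 1.41, beside -0.64 over all 15625 probes so measured. A rise of 1 or more was seen for 14 of the 21, against 13.1% of all such probes. A fall of 1 or more was seen for 1 of the 21, against 39.4%. These shares describe the choice of the set as well as its members.

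**Figure D1:**
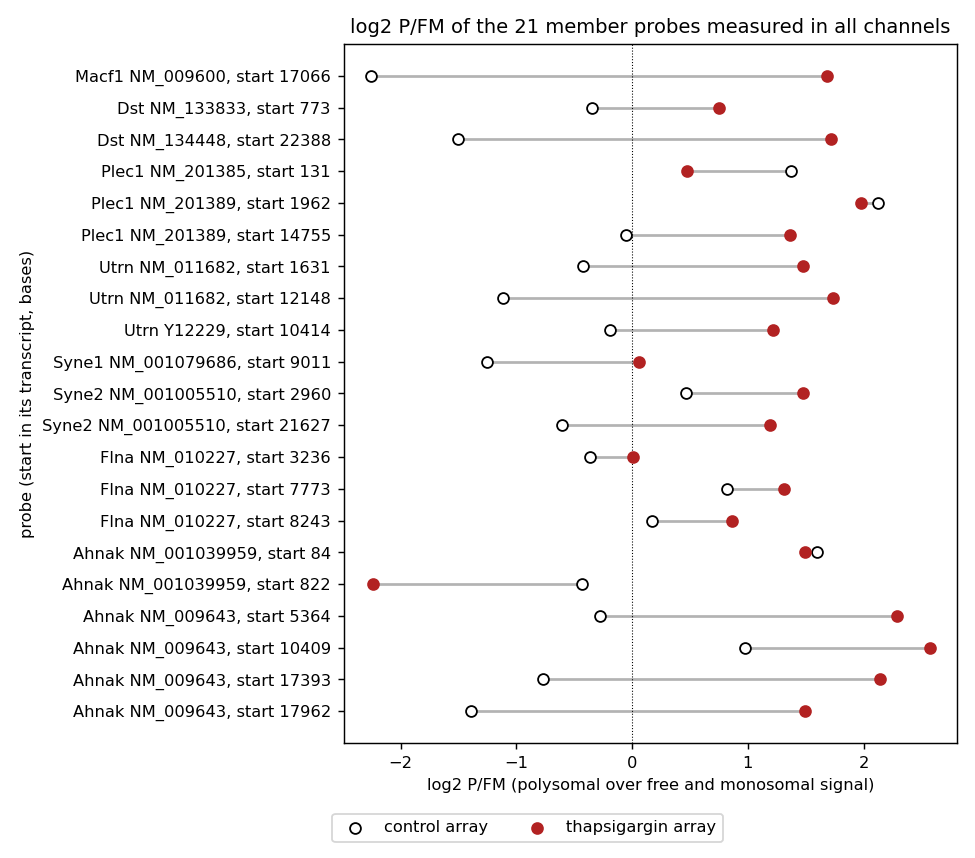
Log2 P/FM (horizontal axis) of the 21 probes measured in all channels, with open circles for the control array, filled circles for the thapsigargin array and a line joining both. The filled circle lies to the right for 17 probes, and the 4 exceptions are the early Plec1 and Ahnak probes.

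The same held for coding accessions, each the average of its probes. Of the 12, 11 had an average signal (A, the mean log2 signal of both channels) above 4.5 on both arrays, and the Syne1 accession NM_153399 did not. Median log2 P/FM of the 11 went from -0.29 in control cells to 1.22, a median change of 1.31 with a range of -0.95 to 3.93. Over all 10033 coding accessions past this filter, the medians were 0.34 and -0.29, and the change had a median of -0.71. Rises of 1 or more were found for 7 of the 11 and for 9.9% of all coding accessions, and falls of 1 or more for 0 of the 11 and for 40.8%. All 7 were also at or below 0 in control cells, a pattern termed inducible that covered 8.86% of coding accessions. A change of -0.8 or lower, termed sensitive, was seen for the Plec1 accession NM_201385 and the Ahnak accession NM_001039959, which made 2 of 11 against 47% overall. A value of at least 0.8 in control and treated cells alike, termed resistant, was seen for the Plec1 accession NM_201389, against 3% overall. A changed by less than 1 for all 11, while it rose by 1 or more for 11.7% of coding accessions and fell by as much for 0.698%.

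The arrays themselves give a measure of spot and probe error. Between spots of 1 probe, the SD of the change had a median of 0.32 for 13 probes of mean A from 4.5 to 5.5 and of 0.063 for 49 probes of mean A above 9. Between different probes of 1 mRNA it had a median of 0.32 over 3438 mRNAs. It was larger for 5 of the 6 member accessions with several probes of A above 4.5, at 0.62 for Ahnak NM_009643, 0.67 for Utrn, 0.86 for Syne2, 1.11 for Plec1 NM_201389 and 1.21 for Ahnak NM_001039959. Each member probe was printed as 1 spot. These SDs cover spot and probe error, not the spread between cultures, which pooling removed.

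Macf1 links actin filaments to microtubules, and its single probe had the largest change of the set. Its P signal was 130.2 on the control array and 409.8 after thapsigargin, and its FM signal was 619.8 and then 127.6. Log2 P/FM went from -2.25 to 1.68, a change of 3.93 or 15.3-fold in the ratio. Both fractions moved: P was 3.15-fold higher and FM 4.86-fold lower. The mean log2 signal of both fractions was 8.15 and then 7.84, a far smaller difference than that of the ratio.

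Dst encodes dystonin, the second spectraplakin, and was read by 2 coding accessions. The NM_134448 probe at base 22388 went from -1.51 to 1.72, a change of 3.22, the closest to Macf1 among these probes. Its P signal was 34.3 and then 190.1, and its FM signal was 97.5 and then 57.8. The NM_133833 probe at base 773 of its transcript went from -0.34 to 0.75, a change of 1.096. There the P signal was 87.0 and then 238.1, and the FM signal was 110.5 and then 141.5, so FM was not lower. The other NM_134448 probe and both cDNA probes of Dst had channels not well above background and give no change.

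Plec1, now named Plec, encodes plectin, which anchors intermediate filaments, and its probes differed by position. The NM_201385 probe at base 131, which crosses an exon junction, went from 1.37 to 0.48, a change of -0.90. The NM_201389 probe at base 1962 had a P signal of 822.5 and then 1393, and an FM signal of 188.0 and then 352.7. The ratio, as log2 P/FM, was 2.13 and then 1.98, the highest control value of the set and a change of -0.15. The NM_201389 probe at base 14755 had a P signal of 299.9 and then 858.3, and an FM signal of 310.5 and then 332.3. Its log2 P/FM was -0.05 and then 1.37, a change of 1.42. The resistant call for NM_201389 is an average over probes whose changes differed by 1.57. Plectin is known for alternative first exons, and the files do not say which of its transcripts each probe detected.

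Utrn encodes utrophin, and all 3 of its measured probes rose by 1 or more. The probe at base 12148 of NM_011682 had P of 137.7 and then 501.2, and FM of 298.0 and then 150.2. Its log2 P/FM went from -1.11 to 1.74, a change of 2.85. The probe at base 1631 had P of 95.04 and then 233.7, and FM of 127.3 and then 83.9. Here log2 P/FM rose from -0.42 to 1.48, a change of 1.90, with P higher and FM lower as at the later base. The probe of the cDNA Y12229 went from -0.19 to 1.22, a change of 1.41. The NM_011682 probe at base 9979 and that of another cDNA had channels not well above background. Utrophin was thus read as higher at an early and at a late position.

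The nesprins were near the limit of detection. For Syne1, 1 of 6 probes was measured in all channels: the NM_001079686 probe at base 9011, whose P was 37.5 and then 113.4 and FM 89.2 and then 109.0. Its log2 P/FM went from -1.25 to 0.06, a change of 1.31. A second probe of that accession was set aside because its spot was marked as an outlier on the thapsigargin array. With it kept, the change of the accession was 0.77, below the limit for a rise. For Syne2, 2 of 7 probes were measured. The one at base 21627 had P of 79.9 and then 201.0 and FM of 121.5 and then 88.2, and its log2 P/FM went from -0.60 to 1.19, a change of 1.79. The one at base 2960 had P of 94.7 and then 237.5 and FM of 68.5 and then 85.4, and its log2 P/FM went from 0.47 to 1.48, a change of 1.008. So P was higher at both, and FM lower at the later one. Another Syne2 probe, at base 1171, was not well above background in FM after thapsigargin and gives no change. The accession value of Syne2, 1.49, averages in the dim probes as well.

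Flna encodes filamin A and had the smallest rises. Its probe at base 8243 had P of 8447 and then 25446, and FM of 7510 and then 13988. Its log2 P/FM was 0.17 and then 0.86, a change of 0.69. The probes at bases 7773 and 3236 changed by 0.49, from 0.82 to 1.31, and by 0.37, from -0.36 to 0.01. Both fractions were higher at all 3 probes, and A of the accession went from 9.20 to 10.2. The SD of the change between these 3 probes was 0.16, the smallest among the member accessions with several probes.

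Ahnak was read along much of a very long exon, where all probes rose, and by the probes of a short accession, where neither did. At bases 5364, 10409, 17393 and 17962 of NM_009643 the changes were 2.56, 1.59, 2.91 and 2.89. At base 17962 the P signal was 2434 and then 8747, and the FM signal was 6392 and then 3107, so log2 P/FM went from -1.39 to 1.49. P was higher and FM lower at all 4 of these probes. The short accession NM_001039959 had a probe at base 84 with P of 10078 and then 12014, and FM of 3335 and then 4251. Its log2 P/FM was 1.595 and then 1.499, a change of -0.10, which is within the SD between probes. The probe at base 822 of the short accession had P of 72.1 and then 33.2, and FM of 97.2 and then 157.2. This made log2 P/FM -0.43 and then -2.24, a change of -1.81 and the only fall of 1 or more in the set. That probe lies beyond the last NM_009643 probe on chromosome 19. The sensitive call for the short accession averages both of its probes, and the files do not say which Ahnak transcripts either detected. The mean of both accessions was 0.77, and the mean over all 6 probes was 1.34.

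The fraction that moved differed between the genes. P was higher after thapsigargin at 19 of the 21 measured probes, and FM was lower at 9, all of which also had higher P. P higher with FM lower was found for 10.3% of all measured probes. By accession, P was higher for 9 of the 11 members and for 50.7% of all coding accessions. FM was lower for 5 of the 11 and for 13.4% of all coding accessions. Over the 11 accessions the median change was 1.30 in log2 P and 0.29 in log2 FM. Over all coding accessions it was 0.016 in log2 P and 0.72 in log2 FM, so the median of all mRNAs gained FM signal while the median of the members gained mainly P signal.

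**Figure D2:**
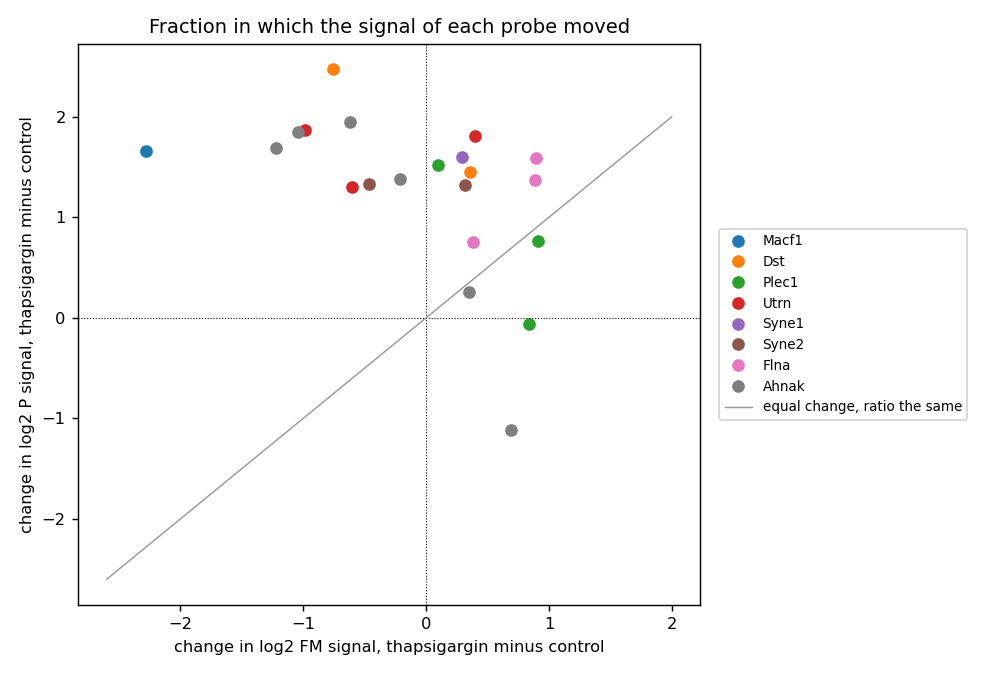
Change in log2 P signal (vertical axis) against change in log2 FM signal (horizontal axis), thapsigargin minus control, for the 21 measured probes coloured by gene, with a line where both changed equally. The 17 probes above the line rose in log2 P/FM, and the 9 in the upper left, with Macf1 farthest left, had higher P and lower FM.

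Other long mRNAs showed the same direction. With 13549 measured probes of other coding genes grouped by where they start in the transcript, the median change was -1.43 below base 1000 and -1.005 between 1000 and 2000. It was -0.25 between 2000 and 4000, 0.65 between 4000 and 8000 and 1.78 at 8000 and beyond. A rise of 1 or more was seen for 3.25% of probes in the first of these groups and for 77.1% of the 188 in the last. Median log2 P/FM in control cells went the other way, from 0.73 in the first group to -0.61 in the last. Across 10022 other coding accessions, the greatest probe start and the change had a Spearman rho of 0.54, as a description of mRNAs that share the same arrays. Among accessions of mean A from 7 to 9 the median change still went from -1.64 for 457 accessions whose probes all start below base 1000 to 1.61 for 41 with a probe from base 8000 on. A probe start is only a lower bound on the length of its mRNA.

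The shortest reach among the 8 genes was that of Flna, at base 8243. Probe starts at least as great were held by 155 other coding accessions, whose median change was 1.48, with 5th and 95th percentiles of -0.51 and 2.72. Of these, 103 (66.5%) rose by 1 or more and 5 (3.23%) fell by 1 or more. The 8 member accessions of such reach had a median of 1.49. Among those of A above 7, the largest rises were of Fryl (2.87), Trio (2.71) and Nufip2 (2.34), and the falls of 1 or more included those of Plxna1 (-1.32) and Spnb4 (-1.05), the gene of a beta spectrin.

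The 20 measured coding probes of the members were each set against other probes in the same of these groups of starts. Above the upper quartile of the group were 11, and 8 lay between the quartiles. Flna at base 8243 was the 1 below the lower quartile. Those above the upper quartile were the Macf1 and Dst probes, both from Utrn NM_011682, the earlier ones of Syne2 and Plec1 NM_201389, Ahnak at base 84 and 3 of the Ahnak NM_009643 probes. The last group holds all starts from base 8000 on, so starts in it can differ widely, and a closer match on start was not tested. The groups match probe start and not mRNA length, so early probes of long members are set beside probes of shorter mRNAs. Other accessions whose probes all start below base 1000 had a median change of -1.61, against 1.48 for those with a probe from base 8000 on. A match on length was not tested. The 11 also include Macf1, whose rise chose the set, and several probes of the same mRNA. From base 2000 on, all 14 measured coding probes of the members were higher and 11 rose by 1 or more. Below base 2000, 2 of 6 were higher, at Dst and Utrn.

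Within most single accessions with probes far apart, the later probe also changed more. In 5 member accessions with measured probes at least 4000 bases apart, the last probe had a larger change than the first in 5 of 5, by a median of 0.78. Among 200 other accessions with such probes this was so in 171 (85.5%), by a median of 0.89. Log2 P/FM in control cells was lower at the last probe in 4 of the 5, all but Flna, and in 75% of the others. For Ahnak NM_009643 and Flna the difference in change was only 0.32, about the median SD between probes of 1 mRNA. In Ahnak NM_001039959, with probes 738 bases apart, the difference was -1.71. The positions along 1 mRNA thus did not give equal ratios, in these genes or in others.

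**Figure D3:**
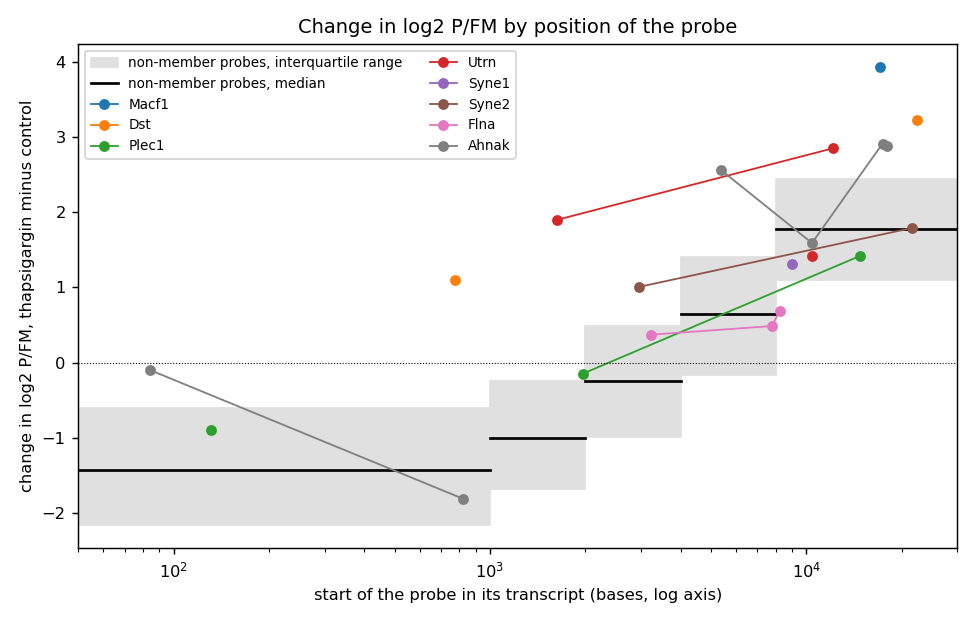
Change in log2 P/FM (vertical axis) against the start of the probe in its transcript (bases, log axis). Coloured points are measured member probes, joined within an accession, and grey boxes and black lines give the quartiles and medians of 13549 other probes, whose medians go from -1.43 to 1.78.

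The relatives and partners of the members gave mixed values. Of coding accessions for structural relatives (spectrins, alpha-actinins, other filamins, Gas2 proteins), 10 passed the A filter, with a median change of 0.41, 4 rises and 2 falls of 1 or more. The largest rise was of the beta spectrin Spnb2 (NM_009260), at 2.99, and the largest fall was of the alpha-actinin Actn4, at -1.19. Of those for the nuclear lamina and the complex in which nesprins work, 15 passed, with a median of -0.56, 1 rise and 6 falls. Tor1aip1 (NM_001160018), which activates torsin, had the largest rise at 1.07, and the inner nuclear membrane protein Emd the largest fall at -3.03. Another Tor1aip1 accession (NM_144791) went the other way, with a change of -0.63. Of those for binding partners such as integrins, syntrophins and microtubule tip proteins, 26 passed, with a median of -0.50, 3 rises and 10 falls. Here the adhesion protein Vcl had the largest rise at 1.15, and Anxa2, the partner of Ahnak, the largest fall at -2.70. Over all coding accessions the median was -0.71, with rises for 9.9% and falls for 40.8%, so the shares for the partners lay near those of all mRNAs.

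The accessions nearest to Macf1 over log2 P/FM and A of both arrays, among 5504 compared, were Akap12, Cbll1, Nufip2, Ubn2 and Trio, at Euclidean distances of 0.83, 0.97, 1.23, 1.27 and 1.30. Akap12, a scaffold of protein kinase A, went from -2.72 to 1.06, a change of 3.79. Like Macf1 it had higher P and lower FM, a likeness built into the choice by these same values. The greatest probe start ran from 1624 in Cbll1 to 11165 in Trio, a lower bound on the length of each.

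The arrays were of similar quality: between 42.5% and 46.3% of the 43379 transcript spots were well above background in each channel, and 0 were saturated. Fibroblast markers were present, with all 8 past the A filter and 7 of them, all but Col3a1, well above background. By contrast, 0 of 4 epithelial, 0 of 6 striated muscle, 0 of 3 endothelial and 1 of 3 leukocyte accessions (Cd68) passed the A filter. Spike-in control probes, 10 in number, changed by -2.67 to -2.16, and the part of this shift in the values above was not tested. Centring each array on them gave a median change of 3.86 for the members, 4.04 for the 8 of them with a probe start of 8243 or more and 4.03 for the 155 other mRNAs of such reach. The members' median stood above that of all coding accessions in each of 11 ways of processing. Centring an array on its median or on its spike-in probes shifts all its mRNAs alike. Those ways therefore repeat the reported differences between groups by construction and are no separate check of them. The median of the members of such reach differed from that of other long mRNAs by -0.033 to 0.25 in 8 of the 11 ways, the centred ones included. It differed by 0.56 to 0.91 in the other 3 (normexp, no background subtraction, no filter on A). There, accessions that the A filter otherwise removed came in, so that 307 other long mRNAs were compared, against 155 as reported. Normexp and no background subtraction also altered the signals, and the cause of the larger differences was not tested.

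**Figure D4:**
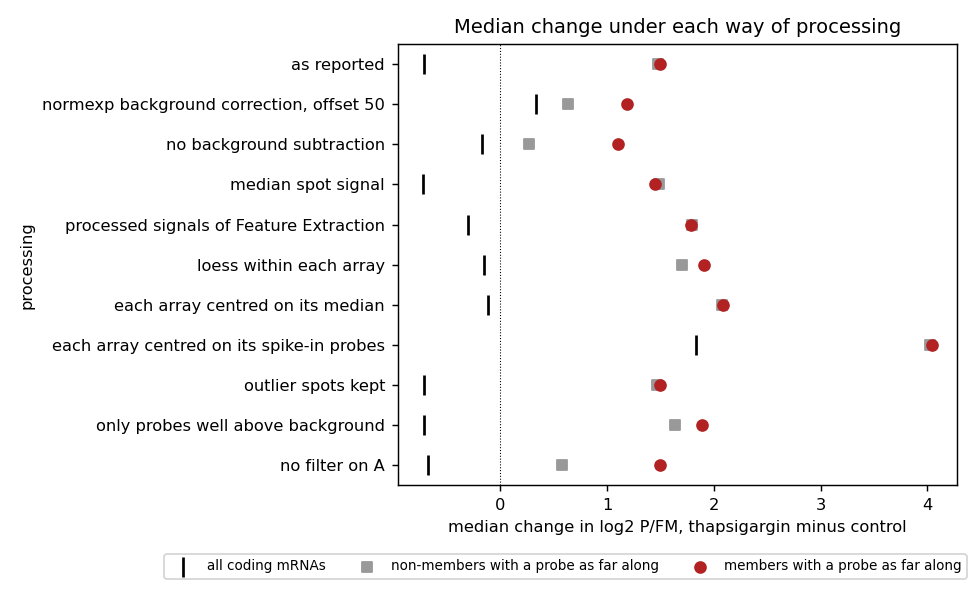
Median change in log2 P/FM (horizontal axis) of the 7 or 8 member accessions with a probe start of 8243 or more (circles), of other coding mRNAs of such reach (squares) and of all coding mRNAs (ticks), under each way of processing (vertical axis). The circle is to the right of the tick in every row, and close to the square in the values reported (1.49 and 1.48). The rows centred on the median or on spike-in probes shift all marks together, so their spacing repeats that of the values reported.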

How the data were processed

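Per the file headers, spot and local background intensity values came from Agilent Feature Extraction, version 10.7.1 in the submitters' notes. The deposited files also hold processed signals of that software. The authors made a table of log2 P/FM per accession with no normalization between channels; 99.99% and 100% of its 11483 values on the control and thapsigargin arrays equalled those computed here within 0.001. It was used only as an alternative.

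From the mean signal of each spot the median local background was taken away, and values under 0.5 were set to 0.5 (limma 3.58.1, R 4.3.3), as the study's methods state. No normalization was applied. Of 43379 transcript spots, 295 (0.680%) marked as outliers were left out. Spots were averaged per probe and probes per accession. Coding means an accession starting with NM. Current symbols came from RefSeq (GRCm38.p6, names only), which held 18423 of 18743 coding accessions and 11 of 12 members (not that of Macf1). Other steps used Python 3.11.15. Where a channel was dim, no change is given for the single probe.

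The genes named are the 8 members, the largest rise and fall of each list, the 5 accessions nearest to Macf1 and the 3 largest rises and falls among long non-members, of which 1 is not reported here. Members, lists and thresholds were chosen with earlier results of these data known. A comparison by protein length was planned, but no protein table was at hand, so probe starts stood in; this, the contrast of first and last probes, the positions of single probes and the comparison of members with other mRNAs of like reach were chosen after seeing the data. With 1 array per condition no test was made and no interval can be given; the number of arrays limits the precision. The steps were tested on simulated data. Alternatives covered background correction, spot signal, processed signals, scaling, outlier spots, the A filter and the authors' values.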

Additional observations from a re-analysis of the deposited data

How the results depend on the processing

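No paired analysis was possible because each condition has 1 array, and for the same reason no replicate could be left out. The falls called sensitive turned to rises when each array was centred on its spike-in probes, to 1.65 for Plec1 NM_201385 and 1.596 for Ahnak NM_001039959, and the former was 0.48 with normexp. The median change over member accessions, 1.31, was 0.78 with no background subtraction, 1.91 with each array centred on its median, 3.86 with each centred on its spike-in probes and 0.93 from the authors' values, which hold fewer members. The number of accessions up by 1 or more, 7, was 4 with no background subtraction and 11 with spike-in centring. The number down by 1 or more, 0, was 1 with median spot signals. Among the other 26 values of these summaries, the median change ran from 1.00 with normexp to 1.48 with loess scaling. The number up by 1 or more ran from 5 with the authors' values to 9 with processed signals, and the number down by 1 or more stayed 0. By gene, as the mean of its accessions, the change ranged over the alternatives from 2.84 to 6.48 for Macf1, from 1.096 to 4.44 for Dst, from 1.33 to 4.05 for Utrn, from 0.49 to 4.04 for Syne2, from 0.23 to 3.86 for Syne1, from 0.73 to 3.32 for Ahnak and from 0.48 to 3.07 for Flna. For Plec1, -0.13 as reported, it ranged up to 2.42 and was above 0 in 7 of 12 settings. With single probes averaged per gene in place of accessions, it was 1.34 for Ahnak, 2.05 for Utrn and 0.96 for Syne2. Spearman's rho of probe start and change ranged from 0.28 with normexp to 0.54. The cause of these shifts was not tested. Signal over background limits Syne1 and Syne2 most, where 10 of 13 probes had no full measurement.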

Other observations

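Inside the loci of Ahnak, Dst, Syne1 and Utrn, 10 probes carried other names. None of the 10 was well above background in all 4 channels on these arrays.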
